A study of Caenorhabditis elegans with 2 samples.

Results

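The genes for the proteins of the small ribosomal subunit, named rps plus a number, were followed through a chromatin immunoprecipitation and sequencing (ChIP-seq) experiment on the nematode Caenorhabditis elegans. They were taken from the WBcel235 annotation by symbol, which gave 31 genes of 46926 annotated genes and of 19985 protein-coding genes. All of them encode proteins of the cytosolic ribosome. Membership used no measured value, but the family was chosen with earlier results of these data known. For each gene, peak summits within 500 bp of any annotated 5′ end of a transcript were collected from 4 peak lists.

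The animals were L4 larvae, the last larval stage, of strain OP231, with genotype unc-119(ed3) III; wgIs231, of mixed sex. The integrated transgene wgIs231 expresses the protein ZK546.5 with GFP and FLAG at its C-terminus. The labels name neither the promoter that drives the transgene nor the cells that express it, and the control experiment they point to was not analysed here. There were 2 samples, labelled biological replicates 1 and 2 of 1 group, both whole animals, so binding in different tissues is mixed in each value. No second condition was measured, and the results below compare genes, lists and replicates within the group. With 2 replicates of 1 group there was no difference between groups to test, and the values below are descriptions without p-values.

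The small subunit carries the messenger RNA, holds the decoding centre where codons and transfer RNAs are matched, and joins the large subunit during initiation. Its proteins are divided between a head, which moves during translocation, and a body with a platform, between which the messenger RNA enters and leaves. Ribosomal protein genes are among the most highly transcribed genes of a growing animal, and the proteins are needed in equal amounts. In C. elegans a spliced leader often replaces the first bases of a transcript, and transcription may then begin upstream of the 5′ end that the annotation holds.

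Each peak has a signal value, which is the authors' own measure of its height in arbitrary units. How it was scaled from list to list was not stated, so ranks within a list are set side by side and levels are not compared between lists. The list of replicate 1, the list of replicate 2 and the pooled list each held 30000 peaks, weak background included. The reproducible list held the 304 peaks that the authors kept by the irreproducible discovery rate, which asks how well ranks hold between replicates. Each rps peak in it had the same rank there as in the pooled list, down to rank 215 at rps-22. To that rank at least, the list is the top of the pooled list by signal. A peak in it therefore need not rank high in both replicates. The sequencing depth is unknown, since the lists give no read numbers. Peak positions are those of the ce11 build.

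A reproducible summit lay within 500 bp of a 5′ end of 14 of the 31 rps genes, or 45.2%. Of all protein-coding genes, 277 had one, which is 1.39%. A summit of the pooled list was near 28 of the 31 genes (90.3%), against 36.1% of protein-coding genes. Among the protein-coding genes with a pooled summit, 3.84% also had a reproducible one, and among the rps genes 14 of 28 did. The 14 genes had 14 different peaks, 4.61% of the reproducible list. These peaks reached higher than most: 4 were among the 20 strongest reproducible peaks, 5 among the strongest 50 and 9 among the strongest 100. Their signal values ran from 37.3 to 1668 with a median of 75.4, where the median of all reproducible peaks was 48.2.

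**Figure D1:**
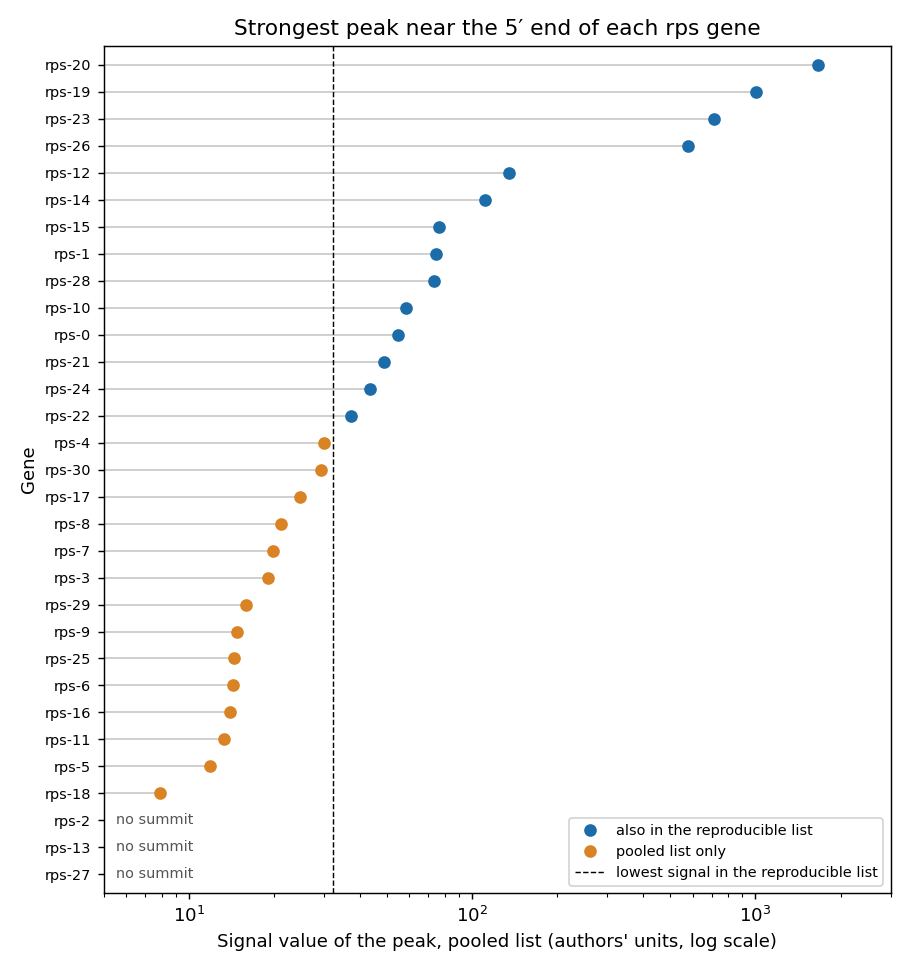
Signal value of the strongest pooled peak within 500 bp of a 5′ end for each of the 31 rps genes, on a log scale in the authors' units. Blue points are peaks that are also in the reproducible list, orange points are in the pooled list only, and the dashed line is the lowest reproducible signal, 32.2. The genes spread from 1668 at rps-20 to 7.91 at rps-18, and 3 genes had no pooled summit.

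The strongest peak of the whole experiment lay upstream of the head protein gene rps-20. It had a signal value of 1668 in the pooled list, 974 in replicate 1 and 694 in replicate 2, and ranked first in all 3 lists. Its peak spans chrI:14469136-14469555 and also covers the 5′ end of ekl-4. The summit is intergenic, 245 bp upstream of the 5′ end of rps-20. The summit was 152 bp from the 5′ end of ekl-4, which is transcribed in the opposite direction. The replicates placed the summit 6 bp and 0 bp from the pooled one.

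The peak at rps-19 had rank 4 in the pooled list. The gene encodes a head protein whose human orthologue is a frequent site of mutations in Diamond-Blackfan anaemia. Its signal value was 1006 pooled, 558 in replicate 1 (rank 3) and 442 in replicate 2 (rank 6). The summit lay 282 bp upstream of rps-19 and 163 bp from the 5′ end of hsr-9, a homologue of a vertebrate DNA damage response protein. The peak spans chrI:9625843-9626290 and covers the 5′ end of hsr-9, while its summit is intergenic.

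Genes for proteins at the decoding centre and at the messenger RNA exit followed. The decoding centre protein gene rps-23 had a signal value of 715 pooled, 384 in replicate 1 and 331 in replicate 2, and ranked 15 in each of the 3 lists. Its summit was 290 bp upstream of rps-23 in a peak at chrIV:12391136-12391512, and 244 bp from dpm-3, which encodes a subunit of dolichol-phosphate mannose synthase. The gene rps-26, whose product sits at the exit channel of the messenger RNA, had a signal value of 579 pooled, 309 in replicate 1 and 277 in replicate 2, and ranked 18 in each. Its peak spans chrI:14759355-14759719, with the summit 407 bp upstream of rps-26, 50 bp from tmem-107, a ciliary transition zone gene, and 111 bp from the small nucleolar RNA gene F39B2.14. At rps-26 the nearest pooled summit was another, weak one inside the gene, 400 bp downstream of the 5′ end with a signal value of 13.1, so the stronger is given here. A wide gap separated these 4 genes from the others: no rps peak had a pooled signal value between 134 and 579.

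In the head, 6 of 13 genes had a reproducible summit, and in the body and platform 8 of 18. Beside rps-20 and rps-19, the head genes were rps-12, rps-15, rps-28 and rps-10. The beak protein gene rps-12 had a signal value of 134 (82.1 in replicate 1, 47.4 in replicate 2), and rps-15, whose product lies close to the decoding site, had 76.1 (45.3 and 32.3). The gene of the exit channel protein rps-28 had 73.4 (37.9 and 35.8), and that of the beak protein rps-10 had 58.4 (37.1 and 10.8). The ranks of rps-10 differ most between the replicates, with rank 116 in replicate 1 and rank 3831 in replicate 2. The other 3 genes ranked between 54 and 108 in both. The peaks of rps-15 and rps-10 span chrI:8816424-8816767 and chrI:4584718-4585061, and that of rps-28 spans chrIV:1659060-1659403.

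In the body and platform, after rps-23 and rps-26, the platform protein genes rps-14 and rps-1 came next. The signal value was 111 at rps-14 (58.2 in replicate 1, 54.3 in replicate 2) and 74.7 at rps-1 (39.2 and 32.5). Then came rps-0, the orthologue of human RPSA, with 54.5 (27.6 and 22.1) at chrIII:4754228-4754571, and rps-21 with 48.6 (29.45 and 20.4). The weakest were the body protein genes rps-24 with 43.5 (30.9 and 17.6) and rps-22 with 37.3 (11.99 and 21.9). The gene rps-22 ranked 215 of the pooled list, and was the lowest rps gene in the reproducible list. It was the one gene of the 14 below rank 304 in replicate 1, at rank 1183, and rps-10 and rps-24 were those below it in replicate 2.

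**Figure D2:**
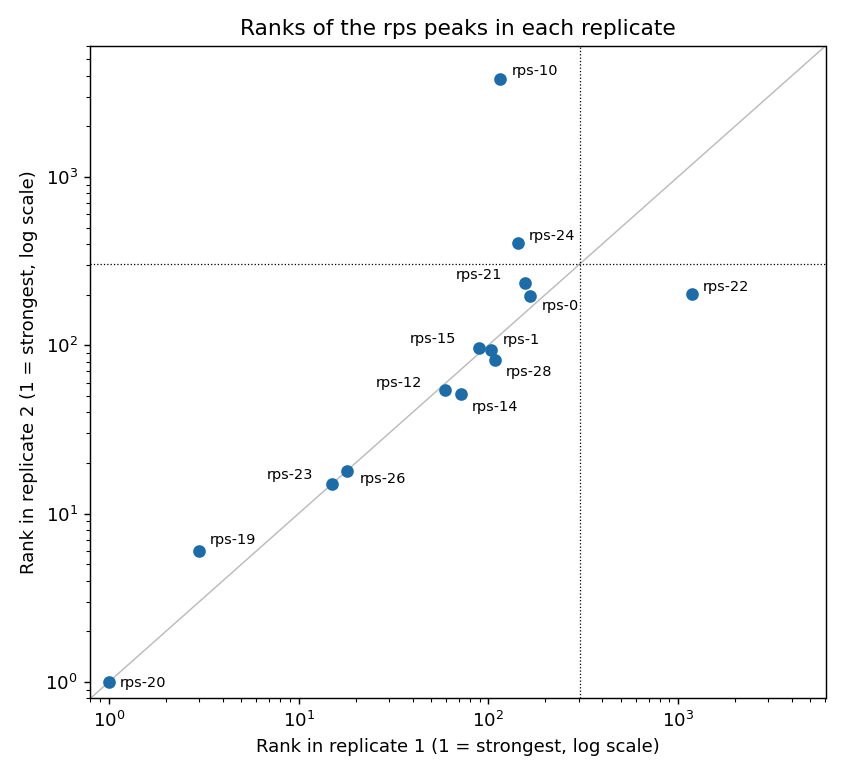
Rank of the peak of each of the 14 rps genes with a reproducible summit in replicate 1 and in replicate 2, on log scales, where rank 1 is the strongest. The grey line marks equal ranks and the dotted lines mark rank 304, and rps-10, rps-22 and rps-24 lie beyond a dotted line.

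All 14 peaks had a summit within 100 bp in both replicate lists, and 11 of the 14 ranked among the 304 strongest of both by that summit. Where the summit nearest to the 5′ end was taken in each replicate list instead, 7 rps genes did. Spearman's rho of the replicate ranks was 0.895 across the 14 genes. This is across genes of lists the authors thresholded on agreement of ranks, and is a description. The replicate summits lay at most 43 bp from the pooled one in replicate 1 and at most 44 bp in replicate 2, with medians of 4.5 and 11.5 bp.

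The other 17 rps genes had no reproducible summit. For 14 of them a pooled summit was found, with signal values from 7.91 to 29.98 and a median of 15.4, where all 30000 pooled peaks had a median of 10.3. Just outside the reproducible list were rps-4, a body protein gene, with 29.98 (rank 357), and rps-30, which encodes a fusion with a ubiquitin-like protein, with 29.2 (rank 372). Then came the head protein gene rps-17 with 24.7 (rank 573), and the body protein genes rps-8 with 21.04 (rank 1053) and rps-7 with 19.8 (rank 1351). The lowest signal in the reproducible list was 32.2, so rps-4 and rps-30 lie close to its edge. That list followed pooled signal, so the lower values of these 14 genes describe its cutoff and are not a separate result. None of these 14 genes ranked in the strongest 304 of either replicate. A replicate summit within 100 bp was present for 11 of them in replicate 1 and for 6 in replicate 2.

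Support from the 2 replicates differed among these weaker peaks. The peak of rps-4 had a signal value of 12.4 in replicate 1 (rank 1045) and 18.5 in replicate 2 (rank 332). The peak of rps-30 had 16.4 in replicate 1 (rank 421) and 10.3 in replicate 2 (rank 4598). For rps-17 only replicate 1 had a summit within 100 bp, with 18.3 (rank 329). Thus rps-4 ranked higher in replicate 2, and rps-30 and rps-17 ranked higher in replicate 1.

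The remaining 9 genes with a pooled summit included several with central tasks in the subunit. The genes rps-3 and rps-9, for proteins at the messenger RNA entry, had ranks 1629 and 4573 in the pooled list. The gene rps-6, whose product is phosphorylated by the kinase downstream of TOR, had rank 5228. The head protein genes rps-29, rps-25, rps-16, rps-5 and rps-18 had ranks 3433, 5097, 5668, 10108 and 26871, and the body protein gene rps-11 had rank 6921. The last of these ranks, at rps-18, came with the lowest rps signal value, 7.91. Proteins at the messenger RNA exit are encoded by genes of both kinds, by rps-26 and rps-28 in the reproducible list and by rps-5 outside it.

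No pooled summit lay within 500 bp of rps-2, rps-13 and rps-27. The gene rps-2, for an mRNA entry protein, had a summit in replicate 1 alone, with a signal value of 10.75 (rank 1786), 293 bp upstream. The body protein gene rps-13 had one in replicate 1 alone, with 5.81 (rank 12586). The gene of the zinc-binding protein rps-27 had none in any of the 4 lists.

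Every reproducible summit was upstream of the annotated 5′ end of its rps gene. The distances ran from 134 bp at rps-22 to 459 bp at rps-28, with a median of 286 bp. Of the 14 summits, 2 were between 100 and 200 bp from the 5′ end, 7 between 200 and 300 bp, 2 between 300 and 400 bp and 3 farther. None was within 100 bp, and 13 of the 14 were more than 150 bp away. Of all 277 protein-coding genes with a reproducible summit, the rps genes included, 92.1% had it upstream, the median distance was 218 bp and 69.7% were more than 150 bp away. Within 200 bp the count of rps genes was 2 in place of 14, and the peak interval covered a 5′ end at 1 gene.

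**Figure D3:**
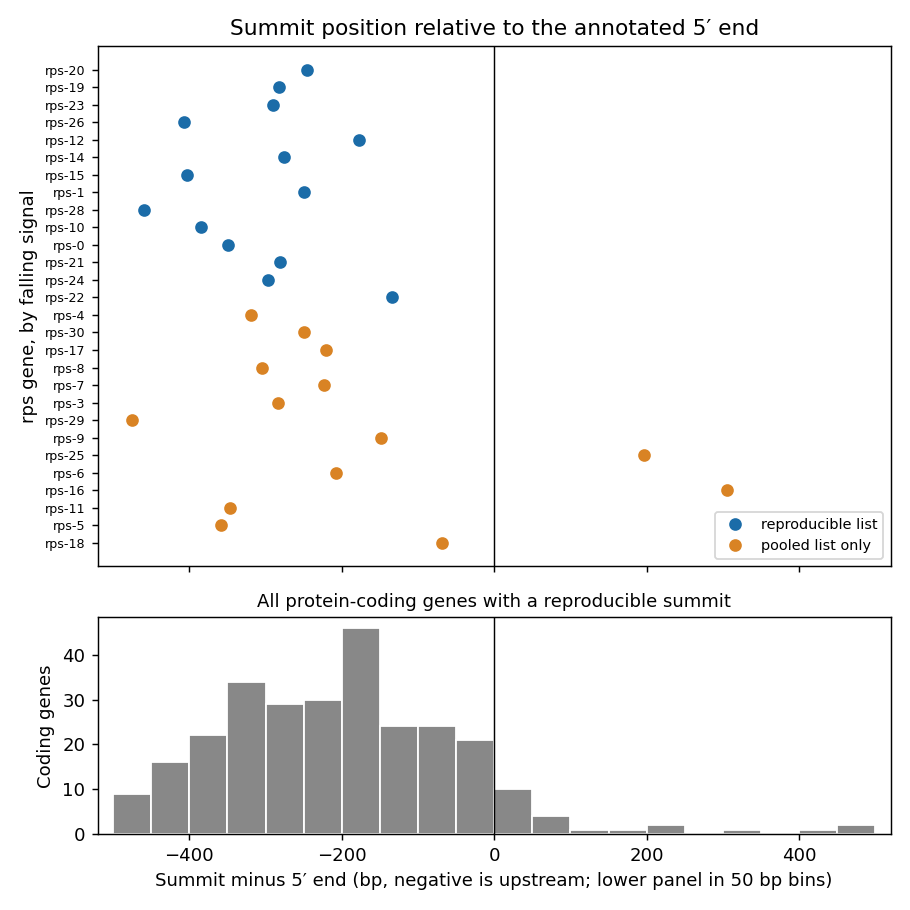
Position of the summit relative to the annotated 5′ end for the 28 rps genes with a pooled summit (upper panel, blue for the reproducible list, orange for the pooled list only, genes by falling signal), and the number of protein-coding genes with a reproducible summit in 50 bp bins (lower panel). Negative values are upstream, and the 14 blue points lie between 134 and 459 bp upstream.

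Of the 14 weaker pooled summits 12 were upstream as well, at a median distance of 267 bp over all 14. The 2 downstream summits were at rps-16, 305 bp inside the gene in a coding exon, and at rps-25, 196 bp inside in an intron. The weak summits of rps-4, rps-30, rps-17, rps-8, rps-7 and rps-3 lay 319, 250, 221, 304, 223 and 284 bp upstream. These were in the range of the strong ones, 134 to 459 bp, while rps-18 at 69 bp and rps-29 at 475 bp were outside it. Another protein-coding 5′ end was nearer to the summit at rps-30 (rpl-39, 249 bp) and at rps-29 (snt-2, 92 bp). Farther than the rps 5′ end but within 500 bp were sna-3 at rps-3 (308 bp), usp-3 at rps-6 (323 bp), lsm-1 at rps-9 (440 bp) and sec-61.A at rps-18 (346 bp).

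At most of these peaks, binding at the rps gene and at a neighbour cannot be told apart. At 12 of the 14 peaks another annotated gene had a 5′ end within 500 bp of the summit, and at 10 another protein-coding gene did. At 9 of the 14 that other protein-coding 5′ end was the nearer one, so that the rps gene was the nearest protein-coding gene at 5, namely rps-1, rps-14, rps-21, rps-24 and rps-28. The closest protein-coding partners were rbg-3, 24 bp from the summit at rps-0, and tmem-107. At rps-22 the summit was almost midway, 134 bp from rps-22 and 132 bp from polh-1, which encodes the translesion polymerase eta. Partners of the ribosome itself were rpl-24.1 at the rps-10 peak (225 bp) and rpl-36 at the rps-14 peak (387 bp), both large subunit genes. The kinetochore gene ska-3 was 116 bp from the rps-12 summit, and F36A2.9 was 378 bp from that of rps-15.

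A divergent neighbour, meaning that the nearest protein-coding gene upstream lay within 1000 bp and pointed the other way, was present at 19 of the 31 rps genes. It was present at 11 of the 14 genes with a reproducible summit and at 8 of the 17 without. Of all protein-coding genes 17.2% had such a neighbour, and of those with a reproducible summit 58.8%. These shares count genes, and a peak shared by a divergent pair counts for each gene of the pair, which can raise the 58.8%. The 3 genes with a reproducible summit and no divergent neighbour were rps-21, rps-24 and rps-28. Of the 12 rps genes without one, the other 9 had no reproducible summit.

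Small RNA genes were also close to some summits. The small nucleolar RNA genes F54E7.10, D1007.20 and F39B2.14 were 257, 359 and 111 bp from the summits of rps-12, rps-10 and rps-26. The piRNA genes 21ur-7304 and 21ur-10581 were 113 and 117 bp from the summit of rps-21. The summits of rps-1 and rps-10 lay in exons of non-coding RNA genes, and the other 12 were intergenic.

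The rps genes with a reproducible summit lay on chromosomes I, III and IV. There were 5 of 8 on chromosome I, 6 of 9 on III, 3 of 10 on IV, 0 of 3 on V and 0 of 1 on II. The share of all protein-coding genes with a reproducible summit was not counted by chromosome. These small counts therefore cannot show whether or not a chromosome was preferred. No rps gene lies on X.

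The sequences under the summits were read from the RefSeq copy of the WBcel235 genome, in windows of 200 bp centred on each summit. The mean GC content was 41.0% in the 14 rps windows, 43.9% in the other 290 reproducible windows and 34.4% in windows placed 286 bp upstream of all protein-coding genes. Searches on both strands used 10 words. The word ACCGTA, the word GCGCAC, the word AGCGCG, the word GAGCGC and the word ACGCAG were chosen because they were frequent under the reproducible peaks of these same data. The frequencies of the word TGCGTCTC, of the CCAAT box and of GAGA repeats under those peaks were known too, so none of the counts is independent evidence. At least 1 of these 5 was in 12 of the 14 rps windows, in 64.5% of the other reproducible windows and in 17.1% of the windows upstream of protein-coding genes. The windows without one were those of rps-0 and rps-26. TGCGTCTC was not in this count, and it was in 0 of the 14 rps windows and 12.4% of the other reproducible windows. Counting it would leave the 12 unchanged and could only raise the other shares.

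No single word was common to the rps peaks. ACGCAG was in 6 of the 14 windows (42.9%), in 25.9% of the other reproducible windows and in 5.08% of the upstream windows. The CCAAT box was also in 6 of 14, against 27.6% and 34.3%. ACCGTA was in 4 of 14 (28.6%), in 61 of the other 290 reproducible windows and in 6.01% of the upstream windows. AGCGCG was in 4 of 14 against 18.6% and 3.22%, as was the word GAGCGC against 22.1% and 3.41%. These last 2 words overlap in 5 bases and were found together in 3 windows. GCGCAC was in 1 rps window, against 23.4% of the other reproducible windows and 3.75% of the upstream windows. The core promoter word TGCGTCTC and the E-box, spelled CACGTG, were in 0 of the 14 windows, against 12.4% and 6.90% of the other reproducible windows and 1.70% and 3.14% of the upstream windows. GAGAGA was in 2 of 14 against 36.9% and 12.1%, and TATAAA in 2 of 14 against 11.4% and 24.1%. None of these differences was tested.

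The word ACCGTA was near 2 of the 4 strongest rps peaks. It lay in the windows of rps-20, rps-23, rps-1 and rps-10, once in each, always within 50 bp of the summit and always on the strand opposite to the rps gene. At rps-20, rps-23 and rps-10 this is the strand of ekl-4, dpm-3 and rpl-24.1, whose 5′ ends are nearer to the summit. Its strand in other windows was not counted. ACGCAG was in the windows of rps-20, rps-19, rps-14, rps-10, rps-21 and rps-24.

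The stretches around the summits of 7 rps genes are shown because they carry these words. Their pooled signal values run from 37.3 at rps-22 to 715 at rps-23, and the stronger rps-20 and rps-19 are not shown. The windows of rps-10, rps-15 and rps-28 hold such words too, and that of rps-0 holds a word picked later, but they are not shown. Each stretch shown is 121 bases long, centred on the summit and written 5′ to 3′ on the strand of the rps gene. Capitals mark the 5 words named above and TGCGTCTC on either strand. They also mark 3 words picked after the sequences were seen, of which the first is TACGCAG, the next is GCAGCCAA and the last is CTCNCCACG. The stretches lie at chrIV:12391283-12391403 (minus strand, rps-23), chrIII:5679061-5679181 (plus, rps-12), chrIII:7179804-7179924 (minus, rps-14), chrIII:4475608-4475728 (plus, rps-1), chrIII:7189852-7189972 (minus, rps-21), chrIV:385530-385650 (plus, rps-24) and chrIII:1950341-1950461 (plus, rps-22).
rps-23: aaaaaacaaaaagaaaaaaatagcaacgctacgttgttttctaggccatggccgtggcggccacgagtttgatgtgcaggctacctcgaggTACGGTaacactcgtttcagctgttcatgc
rps-12: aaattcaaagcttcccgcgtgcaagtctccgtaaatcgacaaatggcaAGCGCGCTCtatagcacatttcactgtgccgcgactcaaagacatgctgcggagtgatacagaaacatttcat
rps-14: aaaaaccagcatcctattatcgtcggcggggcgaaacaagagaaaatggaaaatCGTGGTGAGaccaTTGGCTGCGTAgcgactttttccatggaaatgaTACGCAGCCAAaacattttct
rps-1: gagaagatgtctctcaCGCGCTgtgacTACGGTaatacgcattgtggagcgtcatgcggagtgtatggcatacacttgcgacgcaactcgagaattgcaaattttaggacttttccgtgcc
rps-21: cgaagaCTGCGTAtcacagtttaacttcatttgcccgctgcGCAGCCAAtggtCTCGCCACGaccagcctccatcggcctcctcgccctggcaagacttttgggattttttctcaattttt
rps-24: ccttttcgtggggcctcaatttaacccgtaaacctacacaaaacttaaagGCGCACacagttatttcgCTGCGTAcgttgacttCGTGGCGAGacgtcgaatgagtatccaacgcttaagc
rps-22: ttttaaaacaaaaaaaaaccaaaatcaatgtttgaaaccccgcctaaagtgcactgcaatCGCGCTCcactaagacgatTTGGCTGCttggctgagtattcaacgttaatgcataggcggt

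In the stretch of rps-23 the reverse complement of ACCGTA stands at 33.5, counted in bp from the summit with plus towards the gene, and in that of rps-1 at -30.5. The stretches of rps-12 and rps-22 hold AGCGCG overlapped by the word GAGCGC within 10 bp of the summit. Those of rps-14 and rps-21 have a longer run in common on opposite strands, in which GCAGCCAA is followed after 4 bases by the word CTCNCCACG, 21 bases in all with the same 4 bases between. This run was in 2 rps windows and 0 other reproducible windows. It was in 2 of the 19973 windows upstream of protein-coding genes, which were those same rps genes. The run was read off these 2 rps windows after they were seen, so its counts only describe the choice. In both rps genes the centres of its 2 words lie within 20 bp of the summit. The stretch of rps-24 has ACGCAG, also the word GCGCAC, and CTCNCCACG farther on, but not that run.

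The words picked later were read off the rps windows themselves, so their counts there only describe the choice. TACGCAG, which contains ACGCAG, was in 6 of 14 rps windows, 7.59% of the other reproducible windows and 0.916% of the upstream windows, and every rps window with ACGCAG had it. GCAGCCAA was in 5 of 14, against 1.38% and 0.396%, in the windows of rps-0, rps-14, rps-19, rps-21 and rps-22. CTCNCCACG was in 3 of 14, against 4.14% and 0.876%.

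For contrast, 2 of the genes without a pooled summit are shown at the same place, 286 bp upstream of the 5′ end, at chrIV:7926617-7926737 (minus strand, rps-2) and chrIII:6375223-6375343 (minus strand, rps-13). Capitals mark the same words.
rps-2: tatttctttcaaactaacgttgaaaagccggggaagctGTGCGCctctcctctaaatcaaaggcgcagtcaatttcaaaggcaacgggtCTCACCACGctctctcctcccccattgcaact
rps-13: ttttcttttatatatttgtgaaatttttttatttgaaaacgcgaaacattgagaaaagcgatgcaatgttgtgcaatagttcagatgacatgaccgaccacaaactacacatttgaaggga

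The stretch of rps-2 holds GCGCAC on the opposite strand and CTCNCCACG, and that of rps-13 holds none of the words. The stretch of rps-27 at that place, which is not shown, holds none of them either. Words were therefore present at rps-2 with no pooled peak. The rps-2 stretch does hold the summit that replicate 1 alone listed, 293 bp upstream with rank 1786. Of the 17 rps genes without a reproducible summit, 9 had at least 1 of the 5 words in the 200 bp window at that place. Of the windows upstream of all protein-coding genes 17.1% did. A pooled summit was present at 14 of these 17 genes, and the windows were not centred on those summits.

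Among related lists, the rps genes and the large subunit genes had similar counts. Of the 48 genes named rpl or rla, which encode large subunit proteins, 21 (43.8%) had a reproducible summit, by 21 peaks, and 42 had a pooled one. Those 21 summits were all upstream, with a median distance of 303 bp and a median signal value of 82.7, against 286 bp and 75.4 for the rps genes. The strongest was rpl-11.2 with 797. The lists are not separate sets of peaks. The rps-10 peak (pooled rank 120) is also counted for rpl-24.1, and the rps-14 peak (pooled rank 53) for rpl-36. In the pooled counts the rps-30 peak (rank 372) is also that of rpl-39. The 29 mrps genes, for the small subunit of the mitochondrial ribosome, had no reproducible summit, and 14 (48.3%) had a pooled one, of which the strongest was at mrps-35 with 18.2. Of 14 genes for assembly of the small subunit, 10 had a pooled summit and 1 a reproducible one, nol-56, a core protein of box C/D particles, with 35.7. The share of mrps genes with a reproducible summit was thus near the 1.39% of all protein-coding genes, and the shares of both cytosolic lists were far above it. These differences between lists were not tested.

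**Figure D4:**
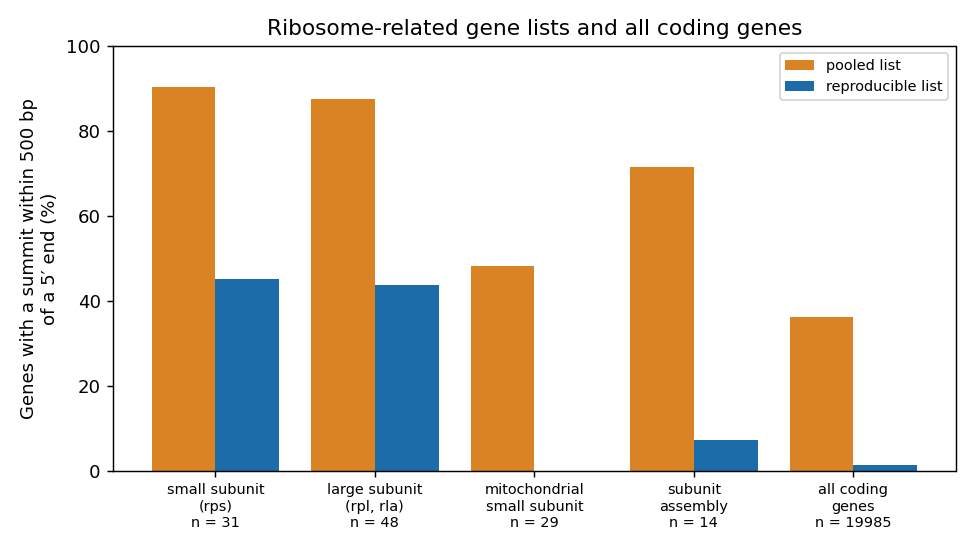
Share of genes with a summit within 500 bp of an annotated 5′ end in the pooled list (orange) and in the reproducible list (blue), for 4 ribosome-related gene lists and for all 19985 protein-coding genes. The reproducible share is 45.2% for the small subunit and 43.8% for the large subunit, 0 for the mitochondrial small subunit and 1.39% for all coding genes.

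Proteins of the small subunit encoded by genes of other names differed from each other. The product of ubl-1 joins a ubiquitin-like part to a small subunit protein. Its peak had a signal value of 439 pooled (rank 23), 245 in replicate 1 (rank 22) and 195 in replicate 2 (rank 24), 210 bp upstream. The gene rack-1, for the scaffold protein on the head, had a pooled summit with a signal value of 8.77 (rank 22042), below the median of the pooled list.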

How the data were processed

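Peak lists of 1 ChIP-seq experiment with 2 biological replicates were analysed. Each peak carries a signal value deposited by the authors, in arbitrary units. Its scaling, the aligner and the peak caller are tool details not given in the sources used here. Per the deposited text files, each list was derived from alignments and 1 control, and the reproducible list from the pooled and both replicate lists. The replicate and pooled lists each hold exactly 30000 peaks, so their length measures nothing, and depth is unknown. Lists on ce10 were not used here.

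Summits were set against 5′ ends of Ensembl release 115 (WBcel235, the same assembly as ce11), and 0 peaks ran beyond a chromosome end. A replicate summit matched within 100 bp. The nearest pooled summit within 500 bp is given, except at rps-26, where the strongest one differs from it and is given. All rps genes are accounted for: those with a reproducible summit by their values, the 5 just outside that list by signal and rank, the other 9 with a pooled summit by rank, and 3 without one. The members, lists and words were chosen with earlier results of these data known. No test was made, since there was 1 group. Alternatives changed the distance, the 5′ end, the list, the replicate and the window. Scripts in Python 3.11.15 with scipy 1.17.1 and matplotlib 3.10.9 were tested on simulated data.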

Additional observations from a re-analysis of the deposited data

How the results depend on the processing

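The count of 14 rps genes near a reproducible summit was 2 within 200 bp, 1 where the peak had to cover a 5′ end, 5 where the rps 5′ end had to be the nearest protein-coding one, and 4 where no other protein-coding 5′ end lay within 500 bp, an alternative chosen after seeing the data. It was 14 within 1000 bp, 14 from the most upstream 5′ end alone (also chosen after seeing the data, since the annotation marks no canonical transcript and that alternative was not run), 12 with the 152 strongest reproducible peaks (without rps-22 and rps-24) and 17 with the 608 strongest pooled peaks (with rps-4, rps-17 and rps-30). With each replicate left out, the 304 strongest peaks of the other replicate's list took the place of the reproducible list. The count then ranged from 12 to 13, rps-10 and rps-24 being lost without replicate 1 and rps-22 without replicate 2. The count of upstream summits had the same range of 12 to 13. The median signal over the 28 genes with a pooled summit was 29.6 for the nearest summit and 33.7 for the strongest, and rps-26 went from 13.1 to 579.1. The number of rps genes whose summit was among the 304 strongest of both replicates was 7 by the nearest summit and 11 by the strongest. No paired analysis was possible because the replicates form 1 group. Depth is not known, so a missing summit at rps-27 says only that none was listed.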

Other observations

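The words read off the summit windows were also counted in the 500 bases upstream of every gene, whether or not it had a peak. TACGCAG was in 8 of 31 rps genes (25.8%), 6 of 48 large subunit genes (12.5%) and 2.23% of protein-coding genes. GCAGCCAA was in 6 rps genes (19.4%), 2 large subunit genes (4.17%) and 0.926% of protein-coding genes. CTCNCCACG was in 6 rps genes (19.4%), 8 large subunit genes (16.7%) and 1.77% of protein-coding genes. The rps genes with TACGCAG and no reproducible summit were rps-3 and rps-30, and those with CTCNCCACG and none were rps-2, rps-6 and rps-13. ACCGTA was in 11 rps genes (35.5%), 24 of 48 large subunit genes and 13.9% of protein-coding genes. Its 11 rps genes include 7 without a reproducible summit, namely rps-7, rps-9, rps-11, rps-13, rps-17, rps-25 and rps-29. TACGCAG and the other words read off the rps windows were chosen there, and ACCGTA was chosen on the reproducible peaks as a whole, so all these shares are descriptions.

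The gene rps-16 begins 109 bp downstream of fib-1, which encodes fibrillarin, the methyltransferase of box C/D particles, on the same strand. The pooled summit of fib-1 had a signal value of 27.3 (rank 439), 117 bp upstream of fib-1, with rank 392 in replicate 1 and rank 3601 in replicate 2. The summit listed for rps-16 itself had rank 5668 and lay inside its coding exon. The pair was picked after its values were seen.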
